A study of Arabidopsis thaliana with 8 samples.

Results

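JRG21 (AT3G55970, jasmonate-regulated gene 21), which lies on chromosome 3, was read by a single probe set (251770_at) on the Affymetrix ATH1 chip, a microarray on which a set of short probes reads one transcript or several similar ones. It is 1 of the 13355 genes with a probe set annotated to them alone, and its probe set is 1 of the 22746 that were tested. The gene was chosen on these same arrays because it was lower on all 4 npr1-1 arrays than on all 4 Col-0 arrays and because its SA effect by label was similar in both genotypes. Its levels in the 4 groups are therefore given as a description and not tested.

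The RNA came from complete seedlings, 2 weeks old, of the mutant npr1-1 and of the wild-type Col-0, which had been kept for 24 h with 2 mM salicylic acid (SA) or with water. The 4 groups, npr1-1 SA, npr1-1 water, Col-0 SA and Col-0 water, had 2 arrays each, given as biological replicates. The mutant carries the npr1-1 allele of NPR1, a coactivator of SA-responsive transcription. Since the transcript of NPR1 is not analysed here, the genotype labels were not checked against it. Levels are the deposited log2 expression values, on which a difference of 1 is a change of 2-fold.

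Jasmonates are hormones made from the fatty acids of plastid membranes, and they mediate the responses to wounding, chewing insects and necrotrophic pathogens. Their active conjugate joins the receptor COI1 to JAZ repressors, which are then degraded, so that MYC factors can turn on their targets. JRG21 encodes an oxygenase of the 2-oxoglutarate and iron-dependent class that hydroxylates jasmonic acid and so removes the precursor of the active hormone. It is itself turned on by jasmonate, and SA is known to hold back many jasmonate-responsive genes, in part through NPR1.

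The arrays had medians of 1.34 to 1.48 over the probe sets tested, and Pearson r across probe sets was 0.994 to 0.996 for 2 arrays of the same group and 0.922 to 0.966 for arrays of different groups. The SA effects of npr1-1, by its labels, and of Col-0 ran against each other across the 22746 probe sets (Pearson r = -0.50, Spearman rho = -0.39; probe sets are not independent replicates). A direction between SA and water within npr1-1 thus holds only as far as the labels of these arrays do. The same goes for the genotypes compared in water alone or under SA alone. A comparison of all npr1-1 arrays with all Col-0 arrays does not depend on which of the npr1-1 arrays had SA. Of 6 markers of photosynthetic tissue 3 were measured, with a mean level over them of 9.23 to 9.35 on the npr1-1 SA, 8.53 to 8.56 on the npr1-1 water, 7.73 to 7.75 on the Col-0 SA and 8.96 to 9.04 on the Col-0 water arrays. The root marker PYK10, the only one of 7 that was measured, was at 7.08 to 7.29 (npr1-1 SA), 5.54 to 5.75 (npr1-1 water), 4.83 to 4.97 (Col-0 SA) and 7.49 to 7.71 (Col-0 water). The 3 of 6 markers of flowers and pollen that were measured averaged 0.11 to 0.59 on all arrays. The photosynthetic markers and PYK10 had other orders of group means than JRG21. They were themselves called for SA in both genotypes, so their order does not give the share of a tissue. The part of tissue shares in the values of JRG21 was not tested.

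JRG21 was low in npr1-1 and high in Col-0 whatever the treatment. It read 2.69 and 2.56 on the npr1-1 SA arrays and 0.96 and 1.84 on the npr1-1 water arrays, against 7.54 and 7.41 on the Col-0 SA arrays and 6.54 and 6.54 on the Col-0 water arrays. No array of one genotype came near the other, and the lowest Col-0 array stood 3.84 above the highest npr1-1 array. The group means were 2.63 ± 0.0916 (npr1-1 SA), 1.40 ± 0.618 (npr1-1 water), 7.47 ± 0.0879 (Col-0 SA) and 6.54 ± 0.00279 (Col-0 water; SD, n = 2 each). From the highest down, the order was thus Col-0 SA, Col-0 water, npr1-1 SA and npr1-1 water, and no neighbours in it overlapped. The npr1-1 water arrays were the least alike, at 0.87 apart, so that their distance from the npr1-1 SA group is the least certain step of the order. Whole seedlings cannot tell fewer expressing cells from less transcript per cell.

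**Figure D1:**
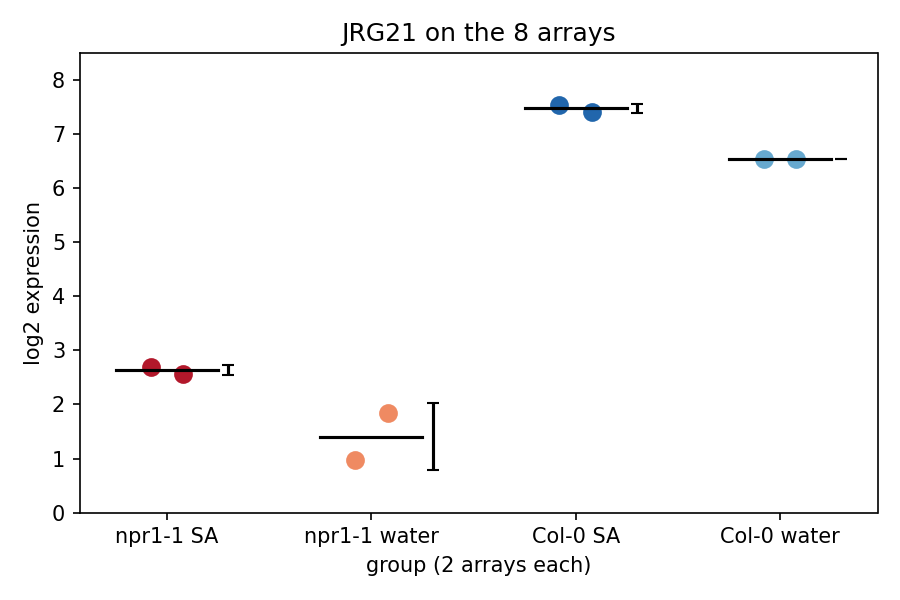
Log2 expression of JRG21 (y axis) on each of the 8 arrays, by group (x axis). Points are arrays, horizontal lines are group means and the bars beside them are the SD (n = 2). The npr1-1 arrays sit between 0.96 and 2.69 and the Col-0 arrays between 6.54 and 7.54.

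As the mean of both treatments, the log2 difference of JRG21 between npr1-1 and Col-0 was -4.99 (standard error 0.154), which is a 31.8-fold lower level. By the npr1-1 labels, the difference was -4.85 (standard error 0.218) under SA, or 28.7-fold, and -5.14 (standard error 0.218) in water, or 35.2-fold. Over both treatments this was the largest difference between the genotypes among all 22746 probe sets, in either direction; the next lowest, AT4G22470, was at -4.32, and the largest rise was 3.36. In water alone 3 probe sets fell further than JRG21 and under SA alone 20 did. By size in either direction JRG21 ranked 15th in water and 22nd under SA. These ranks by treatment rest on the npr1-1 labels as well. A probe set with all 4 npr1-1 arrays below all 4 Col-0 arrays was by itself not rare, since 2000 (8.79%) had this order, and 10.6% had the opposite one. Of the 2000, 255 (1.12% of all) also had both arrays labelled SA above both water arrays in each genotype, as JRG21 did. The values on the npr1-1 arrays are low and detection calls are not used here, so the size of the fold rests on levels that were not checked against the background.

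**Figure D2:**
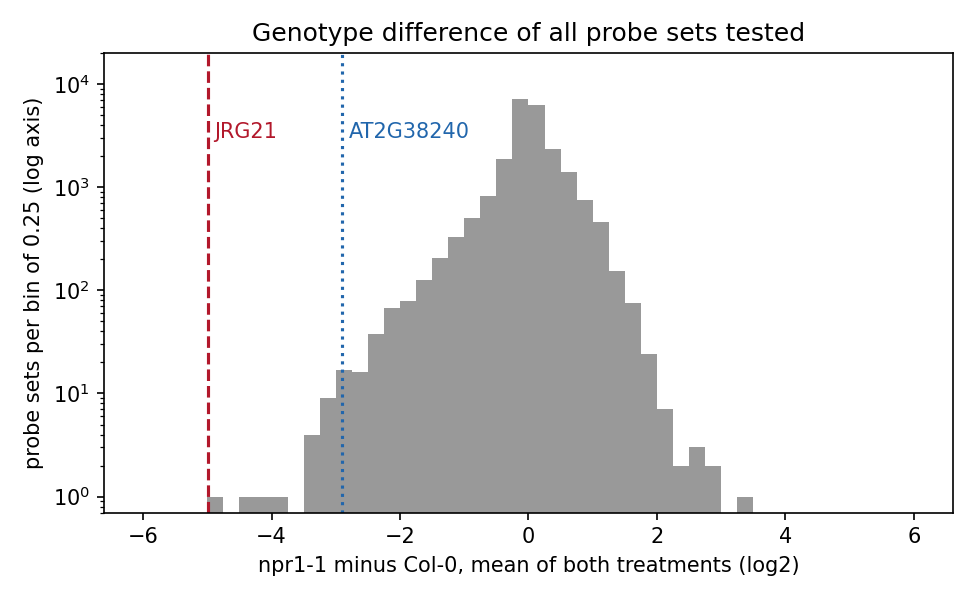
Number of probe sets (y axis, log scale) by their difference between npr1-1 and Col-0, as the mean of both treatments on the log2 scale (x axis, bins of 0.25). The dashed line marks JRG21 at -4.99, the outermost of the 22746 probe sets, and the dotted line marks AT2G38240 at -2.90.

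The control probe sets for RNA quality read the end of a transcript against its start. For actin this log2 difference was 5.95 to 6.15 on the npr1-1 arrays and 4.81 to 5.40 on the Col-0 arrays, without overlap, whereas the genotypes overlapped for GAPDH (npr1-1 2.77 to 4.05, Col-0 2.16 to 3.93) and ubiquitin (npr1-1 1.83 to 2.60, Col-0 2.01 to 2.34). The part of RNA quality in the level of JRG21 was not tested.

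Within each genotype JRG21 was higher on the arrays labelled SA. The difference between SA and water was 1.23 (standard error 0.218) by the npr1-1 labels and 0.93 (standard error 0.218) in Col-0, or 2.34-fold and 1.91-fold. In Col-0 the SA arrays stood at 7.41 and above while both water arrays were at 6.54, and 97.1% of all probe sets had a lower value of this difference. In npr1-1 the value hung on which water array was used. It was 0.79 without npr1-1 water replicate 1 and 1.67 without npr1-1 water replicate 2. The SA effect of npr1-1 less that of Col-0 (the interaction) was 0.29 with a standard error of 0.308, smaller than its error, and it was -0.14 without npr1-1 water replicate 1 and 0.73 without replicate 2. The likeness of both SA effects was part of the choice of the gene and holds by the labels; with the water and SA labels of npr1-1 the other way round, the difference in npr1-1 would have the opposite sign.

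The loci AT2G38240, AT5G05600 and AT3G11180 were listed with JRG21 as oxygenases of jasmonic acid; the gene table used here gives them no symbol. They were fitted with limma over all probe sets, of which 37.8% were called for the genotypes over both treatments at an adjusted p under 0.05 (16.5% lower and 21.3% higher in npr1-1). After centring of the arrays on their medians 42.4% of the calls were higher, in place of 56.4%, and the median difference of all probe sets was -0.09. AT2G38240 was lower in npr1-1 as well. It read 2.53 and 2.04 on the npr1-1 SA arrays and 1.73 and 1.80 on the npr1-1 water arrays, against 4.92 and 4.86 on the Col-0 SA arrays and 5.14 and 4.77 on the Col-0 water arrays. Its genotypes did not overlap, at a log2 difference of -2.90 (standard error 0.122, adjusted p = 1.90e-08 from limma), or 7.45-fold. AT5G05600 read 6.10 and 6.24 (npr1-1 SA), 7.01 and 7.09 (npr1-1 water), 7.99 and 8.14 (Col-0 SA) and 8.07 and 8.17 (Col-0 water). Its genotypes did not overlap either, with the npr1-1 SA arrays the lowest (log2 difference -1.48, standard error 0.0865, adjusted p = 1.51e-07 from limma). AT3G11180 stayed between 0.30 and 0.54 on all 8 arrays, so that no difference between any groups was detectable for it (difference between genotypes -0.02, adjusted p = 0.915 from limma).

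**Figure D3:**
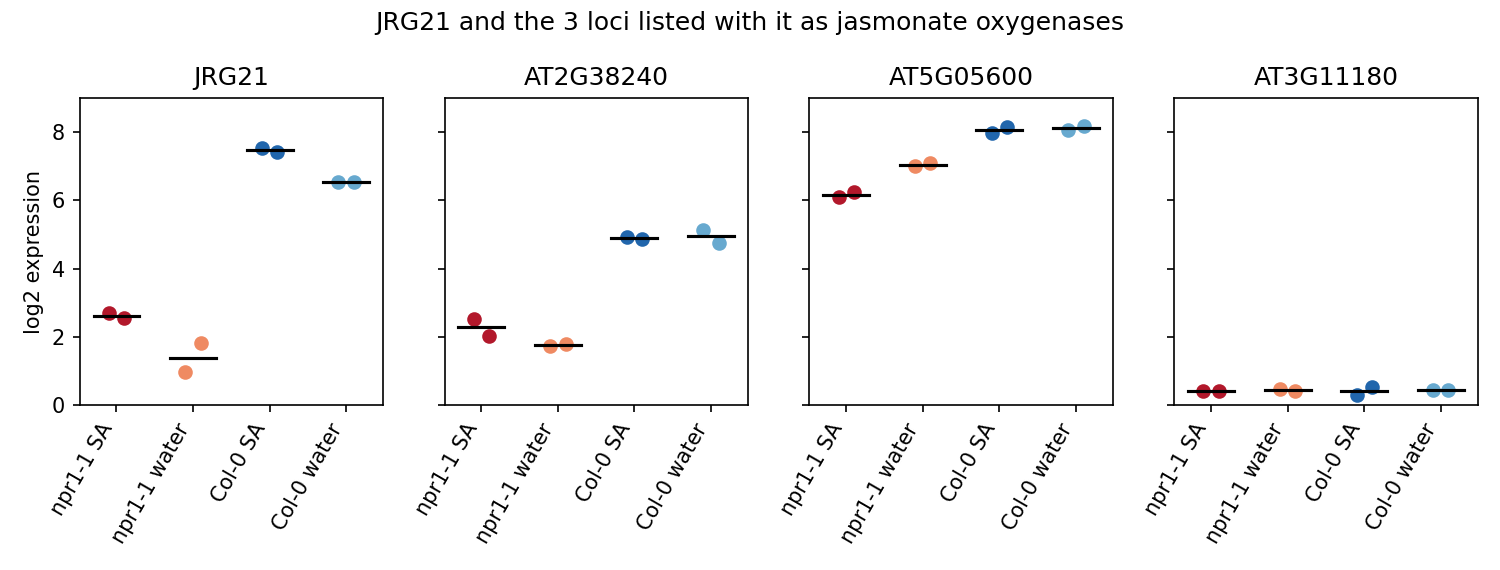
Log2 expression (y axis) of JRG21, AT2G38240, AT5G05600 and AT3G11180 on the 8 arrays by group (x axis); points are arrays and lines are group means (n = 2). In the first 3 panels every npr1-1 array is below every Col-0 array, and AT3G11180 lies between 0.30 and 0.54 throughout.

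None of the loci AT2G38240, AT5G05600 and AT3G11180 was called for SA in Col-0, where 23.5% of all probe sets were called. With so few loci, and AT3G11180 low on every array, this does not set them apart from all probe sets. AT2G38240 had a log2 difference of -0.06 between SA and water (adjusted p = 0.859 from limma) and AT5G05600 one of -0.06 (adjusted p = 0.817). By the npr1-1 labels, where 28.2% of all probe sets were called, they went opposite ways. AT2G38240 was 0.53 higher under SA (adjusted p = 0.0394 from limma, 0.0102 to 0.340 over the alternatives), and the call was lost without npr1-1 SA replicate 1, either npr1-1 water array or either Col-0 SA array, and also after quantile normalization and with unmoderated variances. AT5G05600 was 0.88 lower (log2 difference -0.88, adjusted p = 0.000190), and its interaction of genotype and SA was -0.83 (adjusted p = 0.00280, where 32% of all probe sets were called). Whether these responses differ from those of JRG21 was not tested, since JRG21 was chosen for its own.

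Of 84 other genes listed for jasmonate synthesis, catabolism, perception and repression, transcription factors and targets, 14 had a probe set of their own, among them none of the JAZ repressors. In npr1-1 against Col-0 over both treatments, 6 of the 14 were called lower, 1 higher and 7 neither, where 16.5% of all probe sets were called lower and 21.3% higher. The median difference of the 14 was -0.04, against 0.00 for all probe sets. By treatment, the counts rest on the npr1-1 labels. In water 5 were called lower and 1 higher, where 27% of all probe sets were called (12.7% lower and 14.2% higher). Of these 6 calls in water, 4 held in every alternative. That of MYC3 (adjusted p = 0.0230 from limma, 0.0123 to 0.150 over the alternatives) was lost with trended and robust or unmoderated variances and without either npr1-1 water array or Col-0 water replicate 1. That of MYC4 (adjusted p = 0.00676 from limma, 0.00609 to 0.0694 over the alternatives) was lost with unmoderated variances and without npr1-1 water replicate 1 or Col-0 water replicate 1. Under SA 6 were called lower and 0 higher by limma (also 0 higher at an unadjusted p under 0.05), where 39.3% were (18.4% lower and 20.9% higher; with centred arrays 40.5% of the calls were higher, in place of 53.2%). Of these 6 calls 5 held in every alternative, whereas that of PDF1.2b (adjusted p = 0.0461 from limma, 0.0102 to 0.249 over the alternatives) was lost with trended and robust or unmoderated variances and without any one of the npr1-1 arrays or Col-0 SA replicate 2. For the interaction of genotype and SA 3 had a lower value and 2 a higher one, where 15% and 16.9% of all probe sets did.

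On the side of synthesis, OPCL1 (AT1G20510), which activates a precursor of jasmonate for its shortening in the peroxisome, was at 3.37 and 3.42 on the npr1-1 SA arrays and at 5.76 and 5.63 on the npr1-1 water arrays. In Col-0 it was at 5.52 and 5.15 under SA and at 5.93 and 6.36 in water. The npr1-1 SA arrays were thus the low ones, and the npr1-1 water arrays lay between those of Col-0 SA and Col-0 water. Over both treatments OPCL1 was 2.29-fold lower in npr1-1 (standard error 0.117 on the log2 scale, adjusted p = 7.43e-06 from limma), with a log2 difference of -1.94 under SA and of -0.45 in water (adjusted p = 0.0661 from limma, but 0.0249 without Col-0 water replicate 1 and 0.0249 to 0.468 over the alternatives). DGL (AT1G05800), a lipase related to the one that releases the fatty acid precursor, and JMT (AT1G19640), which methylates jasmonic acid, stayed between 0.12 and 0.80 on all arrays and were not called.

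Of the transcription factors, ORA47 (AT1G74930), an AP2/ERF protein that activates genes of jasmonate synthesis, was highest in Col-0 water. It read 3.57 and 3.17 (npr1-1 SA), 4.59 and 4.53 (npr1-1 water), 4.49 and 4.77 (Col-0 SA) and 7.36 and 7.25 (Col-0 water). Every npr1-1 array was below the Col-0 water arrays, and the npr1-1 water arrays overlapped those of Col-0 SA (genotype difference over both treatments -2.00 on the log2 scale, standard error 0.108, adjusted p = 8.20e-08 from limma). ORA47 was lower under SA, with log2 differences of -1.19 by the npr1-1 labels (adjusted p = 0.000105) and -2.68 in Col-0 (adjusted p = 3.13e-07). MYC3 (AT5G46760), a partner of MYC2 in jasmonate signaling, was between 2.52 and 2.73 on the npr1-1 arrays and between 3.06 and 3.60 on the Col-0 arrays, a log2 difference of -0.69 (adjusted p = 6.53e-05 from limma). MYC4 (AT4G17880), a close relative of MYC3, was the member called higher, by 0.35 on the log2 scale (adjusted p = 0.0134 from limma, 0.00737 to 0.0730 over the alternatives). That call was lost with centred arrays, without moderated variances, without npr1-1 water replicate 1 and without Col-0 water replicate 1.

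Of the 5 targets measured, PDF1.2b (AT2G26020), a plant defensin of the branch that jasmonate and ethylene control together, was called lower in npr1-1. Its arrays lay between 0.42 and 0.81 in npr1-1 and between 1.04 and 1.71 in Col-0, a log2 difference of -0.72 (adjusted p = 9.13e-05 from limma). The npr1-1 levels of PDF1.2b were below the array medians of 1.34 to 1.48 and were not checked against the background. The related defensin PDF1.2 (AT5G44420) stayed between 0.17 and 0.54, and the thionin THI2.1, the lectin JAL23 and the methyltransferase BSMT1 were at 0.66 or below on every array, none of them called. For SA in Col-0, 3 of the 14 genes were called (OPCL1, ORA47 and PDF1.2b), all lower, where 23.5% of all probe sets were called (13.4% lower and 10.1% higher). The call of PDF1.2b (adjusted p = 0.0434, 0.0393 to 0.302 over the alternatives) was lost without any one of 6 arrays, with centred arrays and with trended and robust or unmoderated variances. The call of OPCL1 (adjusted p = 0.00356 from limma, 4e-04 to 0.0923 over the alternatives) was lost with unmoderated variances. JRG21, at 0.93, had the opposite sign to these 3 calls. That contrast was not tested, since the SA effect of JRG21 was part of its choice. At an unadjusted p under 0.05 from limma, 2 of the 14 were higher and 3 lower. MYC3, at a log2 difference of 0.36 (adjusted p = 0.0616 from limma, 0.0348 to 0.319 over the alternatives), was not called in the main fit. It was called higher after quantile normalization, with centred arrays and without Col-0 SA replicate 1. For SA by the npr1-1 labels, 1 (AT2G38240) was called higher and 3 (AT5G05600, OPCL1 and ORA47) lower, where 14.8% and 13.4% of all probe sets were.

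**Figure D4:**
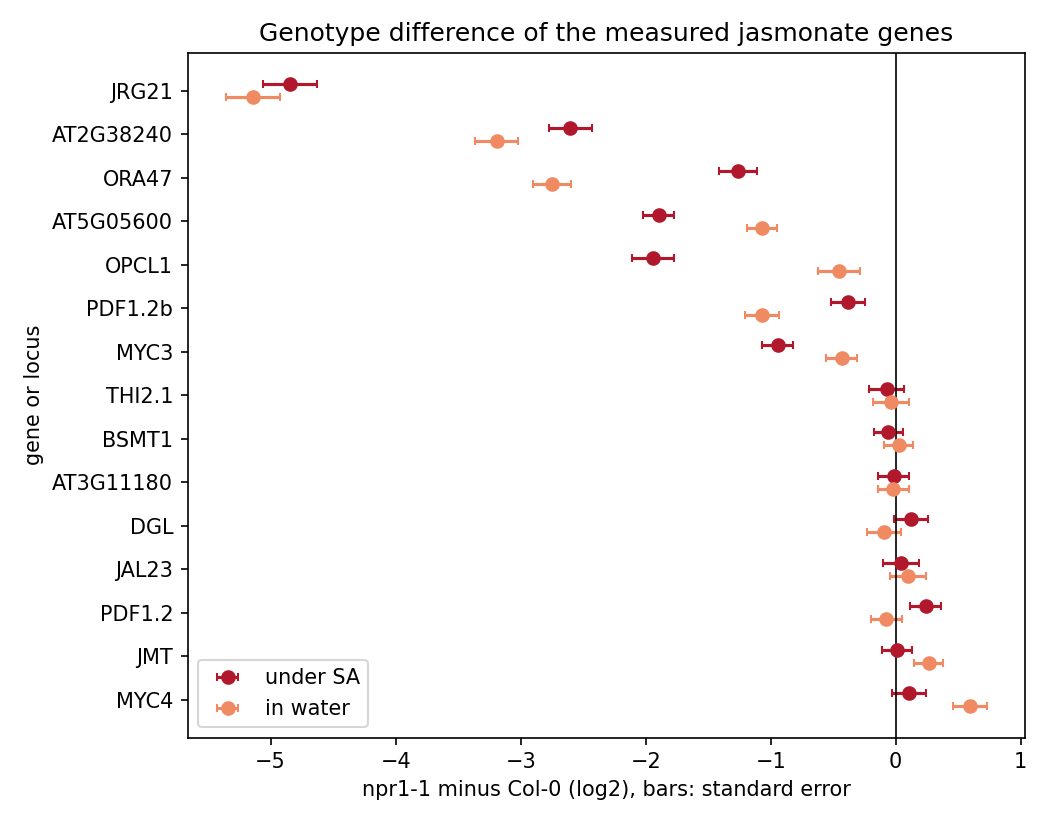
Difference between npr1-1 and Col-0 on the log2 scale (x axis) for JRG21 and the 14 other measured jasmonate genes (y axis, ordered by the mean of both treatments), under SA and in water. Bars are standard errors of the fit over all 8 arrays. JRG21 lies at -4.85 under SA and -5.14 in water, and 7 genes from THI2.1 down to JMT were not called over both treatments.

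Among other enzymes of the same oxygenase class, members were called in both directions between the genotypes. Of 31 listed genes besides JRG21, AT2G38240, AT5G05600 and AT3G11180 included, 9 were measured, of which 3 were called lower (AT2G38240, AT5G05600 and F6'H1) and 2 higher (AOP1 and 2A6) over both treatments, where 16.5% of all probe sets were called lower and 21.3% higher. The median difference of the 9 was -0.05, against 0.00 for all probe sets. F6'H1 (AT3G13610), which makes the coumarin scopoletin, was between 4.78 and 5.07 on the npr1-1 arrays and between 5.18 and 5.56 on the Col-0 arrays (log2 difference -0.47, adjusted p = 0.00123 from limma). AOP1 (AT4G03070), of a family of glucosinolate-modifying oxygenases, stood at 2.22 and 2.28 on the npr1-1 SA arrays but at 1.16 or below on the npr1-1 water arrays, and at 1.09 to 1.47 in Col-0. 2A6 (AT1G03410), by the brighter of its 2 probe sets, likewise stood at 3.90 and 3.81 in npr1-1 SA, against 2.56 and 2.75 in npr1-1 water and 2.17 to 3.04 in Col-0. AOP3 and AT1G14120 stayed at 0.80 or below on every array, and AT1G14130 was between 1.58 and 3.03. For SA in Col-0, 0 of these 9 genes were called by limma, where 23.5% of all probe sets were, and 1, AT1G14120, had an unadjusted p under 0.05 (log2 difference -0.40, adjusted p = 0.0723, 0.0191 to 0.456 over the alternatives). AT1G14120 was called lower after quantile normalization, with trended and robust variances and without Col-0 SA replicate 2, and 2A6 without Col-0 water replicate 1.

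The genes most like JRG21 were sought by Pearson r over the 8 arrays among 3803 genes whose level ranged over at least 1 on the log2 scale. The arrays fall into 2 genotypes, so a high r can come from the gap between them alone, and 92 genes had an r over 0.95. The 10 with the highest r, 0.998 to 0.987, were AT1G25275, AT5G12880, CCOAMT (AT1G67980), AT3G22260, TBL41 (AT3G14850), BGLU16 (AT3G60130), AT1G08310, AT5G38710, AT1G26410 and AT1G52200. All 10 were lower on every npr1-1 array than on every Col-0 array, as were 8.79% of all probe sets. All 10 also had their 4 group means in the order of those of JRG21. The choice by r with JRG21 favours both, so neither is a separate result. Their difference between genotypes was from -0.88 to -2.93, smaller in size than that of JRG21. CCOAMT is annotated as a methyltransferase of caffeoyl-CoA. It was at 3.74 and 3.88 (npr1-1 SA), 3.01 and 3.01 (npr1-1 water), 6.51 and 6.55 (Col-0 SA) and 6.13 and 6.17 (Col-0 water). AT1G26410 had means of 1.55 (npr1-1 SA), 0.89 (npr1-1 water), 4.46 (Col-0 SA) and 3.34 (Col-0 water). BGLU16, a beta-glucosidase, averaged 5.78 (npr1-1 SA), 5.57 (npr1-1 water), 7.41 (Col-0 SA) and 6.94 (Col-0 water). Of the oxygenase loci AT2G38240 ranked 21st (r = 0.98) and AT5G05600 392nd (r = 0.83), and AT3G11180 did not reach the range.

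By the size of the differences, the root mean square distance of the values centred on each gene's mean, the closest gene was AT4G22470, at 0.834, which also had the next largest fall between genotypes and was named after its values were seen. AT2G38240 was 6th at 1.16. The 5 genes least like JRG21, with r from -0.988 to -0.983, were AT5G05250, ASPGA1 (AT5G08100), AT3G05000, AT5G39600 and AT2G19680, all higher in npr1-1, by 0.75 to 1.18. ASPGA1, an asparaginase, averaged 4.69 (npr1-1 SA), 4.87 (npr1-1 water), 3.60 (Col-0 SA) and 3.78 (Col-0 water).

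**Figure D5:**
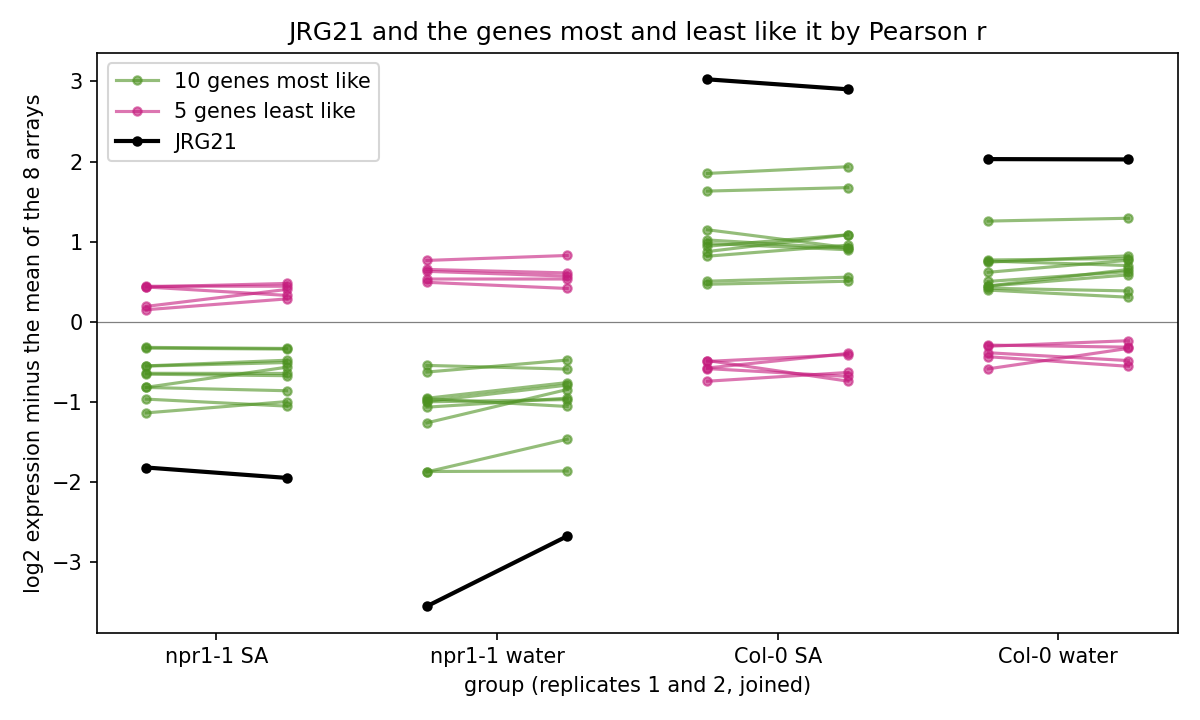
Log2 expression less the mean of the 8 arrays (y axis) for JRG21 in black, the 10 genes with the highest Pearson r with it in green and the 5 with the lowest in pink, by group (x axis). Points are arrays, and a line joins the replicates of a group. The green genes keep the direction of JRG21 in all 4 groups, for which the choice by r selects. Their differences between the genotypes are smaller.

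Of the 5 genes on each side of JRG21 on its chromosome, 4 were measured. The adjacent AT3G55960 averaged 6.47 (npr1-1 SA), 6.71 (npr1-1 water), 6.23 (Col-0 SA) and 6.59 (Col-0 water) and was called in none of the comparisons. AT3G55930 and AT3G55940 stayed at group means of 0.48 or below and were not called either. AT3G56010, the fourth gene on the other side, had means of 4.58 (npr1-1 SA), 3.84 (npr1-1 water), 3.16 (Col-0 SA) and 4.02 (Col-0 water) and was 0.62 higher in npr1-1 over both treatments (adjusted p = 0.00167 from limma). None of the 4 was called lower in npr1-1 over both treatments, where 16.5% of all probe sets were called lower and 21.3% higher. Whether a fall could be seen at the low levels of AT3G55930 and AT3G55940 was not tested.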

How the data were processed

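All 8 arrays of the series were used. The authors deposited log2 values, 1 per probe set and array, already corrected for background, normalized and summarized over the probes. The methods name RMA in affylmGUI for this, whereas Affymetrix Expression Console, with no version, stands in the processing notes of the submitters. Whether a constant was taken off the values stays unknown, and raw signals are not used here. The 64 control probe sets were left out, and 22746 were tested without a filter. In the platform annotation 13513 of these have 1 gene symbol, 503 have several and 8730 none; 13436 of the first were found in the TAIR10.1 gene table. The brightest probe set stands for each of 147 genes with several. NPR1 and probe or gene sequences are not analysed here.

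Group means were estimated with limma 3.58.1 in R 4.3.3 (eBayes without trend), and each contrast had its p-values adjusted over all probe sets (Benjamini-Hochberg), with calls at 0.05. The p-values rest on the spread between replicates, pooled over the 4 groups and moderated across all probe sets. Each group has 2 samples, a number that limits their precision. The computation was checked on simulated data. The gene, the lists (136 entries) and the comparisons were chosen with earlier results of these data known. Named are JRG21, the measured members of the lists, the 10 genes most and 5 least like it and the measured neighbours. A rule to name further oxygenases by their description could not be applied, since the gene table holds none. The alternatives were a replicate block, quantile normalization, arrays centred on their medians, a filter on the 25% of probe sets with the lowest mean, trended and robust variances (statmod 1.5.0), unmoderated variances, counting genes, other measures of likeness and leaving out each array.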

Additional observations from a re-analysis of the deposited data

Results flagged for a closer look

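Other than JRG21, 20 jasmonate and oxygenase genes were measured, and 4 neighbours. Among all of these the SA effect by label differed between the genotypes for 9. They were called for the interaction in limma at an adjusted p under 0.05 (32% of all probe sets were called for it). The count of 9 does not set these genes apart from all probe sets. The SA effect of npr1-1 less that of Col-0 was -1.49 for OPCL1, -0.83 for AT5G05600, -0.51 for MYC3 and -1.38 for AT1G14130. It was 1.49 for ORA47, 0.69 for PDF1.2b, 1.28 for AOP1, 1.59 for 2A6 and 1.59 for the neighbour AT3G56010. Among the tissue markers, PYK10 (4.24, adjusted p = 2.64e-08 from limma) and the 3 measured photosynthetic markers were called higher for the interaction as well. All of these rest on the water and SA labels of the npr1-1 arrays. With 2 arrays a group, no array was tested as standing apart from its group.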

How the results depend on the processing

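JRG21 kept its sign in all comparisons but the interaction under every alternative that could be applied to it. The interaction ran from -0.14 to 0.73 when each array was left out in turn. Over both treatments the genotype difference ran from -5.21 to -4.77 without 1 array and from -5.09 to -4.98 otherwise. It ran from -5.58 to -4.70 in water and from -4.91 to -4.78 under SA without 1 array, and the SA difference from 0.79 to 1.67 by the npr1-1 labels and from 0.87 to 1.00 in Col-0. Without moderation of the variances the probe sets called were 3978 in place of 6419 (SA by label in npr1-1), 2996 in place of 5342 (SA in Col-0) and 3607 in place of 6134 (genotypes in water). Counted as genes, which are fewer, the calls were 3332 for SA by label in npr1-1 and 2667 for SA in Col-0, 3181, 4685 and 4514 for the genotypes in water, under SA and over both, and 3719 for the interaction. Jasmonate genes called without moderation were 1 in place of 3 for SA in Col-0 and 3 in place of 5 for the interaction, and leaving out 1 array gave 3 to 5 for the interaction. Of the 7 called between the genotypes over both treatments, 6 kept their call in every alternative, and MYC4 did not. In PDF1.2b the call for SA in Col-0 was lost without any one of the npr1-1 arrays, Col-0 SA replicate 1 or Col-0 water replicate 2, the interaction of PDF1.2b without npr1-1 SA replicate 1, npr1-1 water replicate 1, Col-0 SA replicate 1 or Col-0 water replicate 2, and in MYC3 the interaction was lost without any one of the 8 arrays but Col-0 SA replicate 1. Unmoderated variances lost both interactions, and that of MYC3 was lost also with trended and robust variances and with the filter on dim probe sets. Of the 10 genes most like JRG21, 1 (AT5G12880) was among the first 10 by Spearman rho, where 10 genes tied at 1, 2 (CCOAMT and AT1G26410) by root mean square distance, and 6 to 9 without 1 array. Without moderation the calls of 2A6 over both treatments and for the interaction and of AT1G14130 for the interaction were lost as well. The causes were not tested. With the replicate block, the MYC3 interaction lost its call (adjusted p = 0.0643 from limma) and JRG21 kept -4.99; replicate numbers are only 2 and the differences between replicates correlated at -0.19 to 0.08 between groups, so they do not pair the samples. The filter on dim probe sets left out JMT, AT3G11180, THI2.1, JAL23, BSMT1, PDF1.2 and AT1G14120. Signals against background were not analysed, which limits what low values can show.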
